A study of Mus musculus with 12 samples.

Results

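The 40 genes described here encode the machinery that makes ribosomes: subunits and factors of RNA polymerase I (Pol I), proteins of small nucleolar ribonucleoprotein particles (snoRNPs), nucleolar chaperones, assembly factors of the small and of the large ribosomal subunit, and the transcription factor MYC. They were chosen by name, as genes of nucleolar ribosome assembly and of Pol I, with earlier results of these data known. Of the 55487 genes in the count table, all 40 were present as 1 row each. All 40 also passed the filter on low counts that left 15801 genes for testing, with 105 to 43286 reads per gene and library.

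As background, ribosome production starts in the nucleolus, where Pol I transcribes the ribosomal DNA into a long precursor RNA. SnoRNPs guide the chemical modification of this precursor, and a large set of assembly factors folds, cuts and loads it with ribosomal proteins on the way to the mature subunits. MYC is a well-known activator of many of these genes and of growth in general. Macrophages stimulated with bacterial lipopolysaccharide (LPS) change the production of a large part of their RNA within hours.

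The RNA came from bone-marrow-derived macrophages, primary cells grown from mouse marrow in medium with 20 ng/mL macrophage colony-stimulating factor. Fes-/- cells are null for Fes, which encodes a cytoplasmic tyrosine kinase of myeloid cells, and wild-type cells were Fes+/+. Cells received 1 µg/mL LPS, or served as controls labelled PBS (called untreated in the treatment protocol), with 4 h as the time for all, which gave the 4 groups Fes-/- LPS, Fes-/- PBS, wild-type LPS and wild-type PBS with 3 poly-A-enriched libraries each. The study's design text gives 3 mice per genotype, so the LPS and PBS wells of a genotype may share mice, but no label ties a well to a mouse. Which part of Fes the null allele lacks, and the strain and age of the mice, are not stated in the labels.

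The libraries held 61016254 to 101027166 counts. Fes was at 32.9 to 35.1 CPM (reads of a gene divided by a scaled library size, as described below) in Fes-/- LPS libraries against 152 to 171 CPM in wild-type LPS libraries, and at 66.4 to 70.5 CPM in Fes-/- PBS libraries against 169 to 189 CPM in wild-type PBS libraries, so each library had the level of its labelled genotype. The 8 macrophage markers were all well expressed, with a summed level of 12512 to 14654 CPM in Fes-/- LPS, 9786 to 13257 CPM in Fes-/- PBS, 13258 to 15952 CPM in wild-type LPS and 11657 to 13931 CPM in wild-type PBS. Markers of other cells were low: over all libraries the 10 neutrophil markers summed to 3.56 to 8.08 CPM, the 6 dendritic cell markers to 0.841 to 2.28 CPM, the 4 stromal markers to 0.0669 to 1.86 CPM and the 4 B cell markers to 0.0806 to 0.777 CPM. The 4 T and NK cell markers summed to at most 0.0510 CPM and the 4 erythroid markers to at most 0.0445 CPM, with Ncr1, Hbb-bs and Alas2 at 0 in all 12 libraries.

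Replicate 2 of the wild type stood apart for these genes, in both treatments. Leaving out Myc, 35 of 39 genes had their lowest level of the 6 LPS libraries in wild-type LPS replicate 2, and 35 of 39 had their lowest level of the 6 PBS libraries in wild-type PBS replicate 2. Of all tested genes, 24.5% were lowest in the first of these libraries and 26.3% in the second. The median gene lay -0.28 (log2) from its mean over the 6 libraries in wild-type LPS replicate 2 and -0.32 in wild-type PBS replicate 2, while the other 10 libraries lay between -0.044 and 0.24. At the other end, Fes-/- PBS replicate 2 was highest for 28 of 39 genes (19.9% of all tested genes) and Fes-/- LPS replicate 2 for 16 of 39 (20.3%). In 31 of the 40 genes replicate 2 was the lowest library under both treatments, including all 5 snoRNP genes and 9 of 10 large-subunit genes. The same wild-type libraries were lowest for 82 of 122 further ribosome biogenesis genes under LPS and 84 of 122 under PBS, but for 17 and 8 of 81 cytosolic ribosomal protein genes. In these libraries the 30 cell-cycle genes had a median deviation of -0.17 under LPS, where wild-type replicate 1 had -0.21, and of -0.25 under PBS, and the macrophage markers had their highest sum in each treatment. The part of these values in the results below was not tested, and comparisons of genotypes are therefore given with and without replicate 2 of the wild type.

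**Figure D1:**
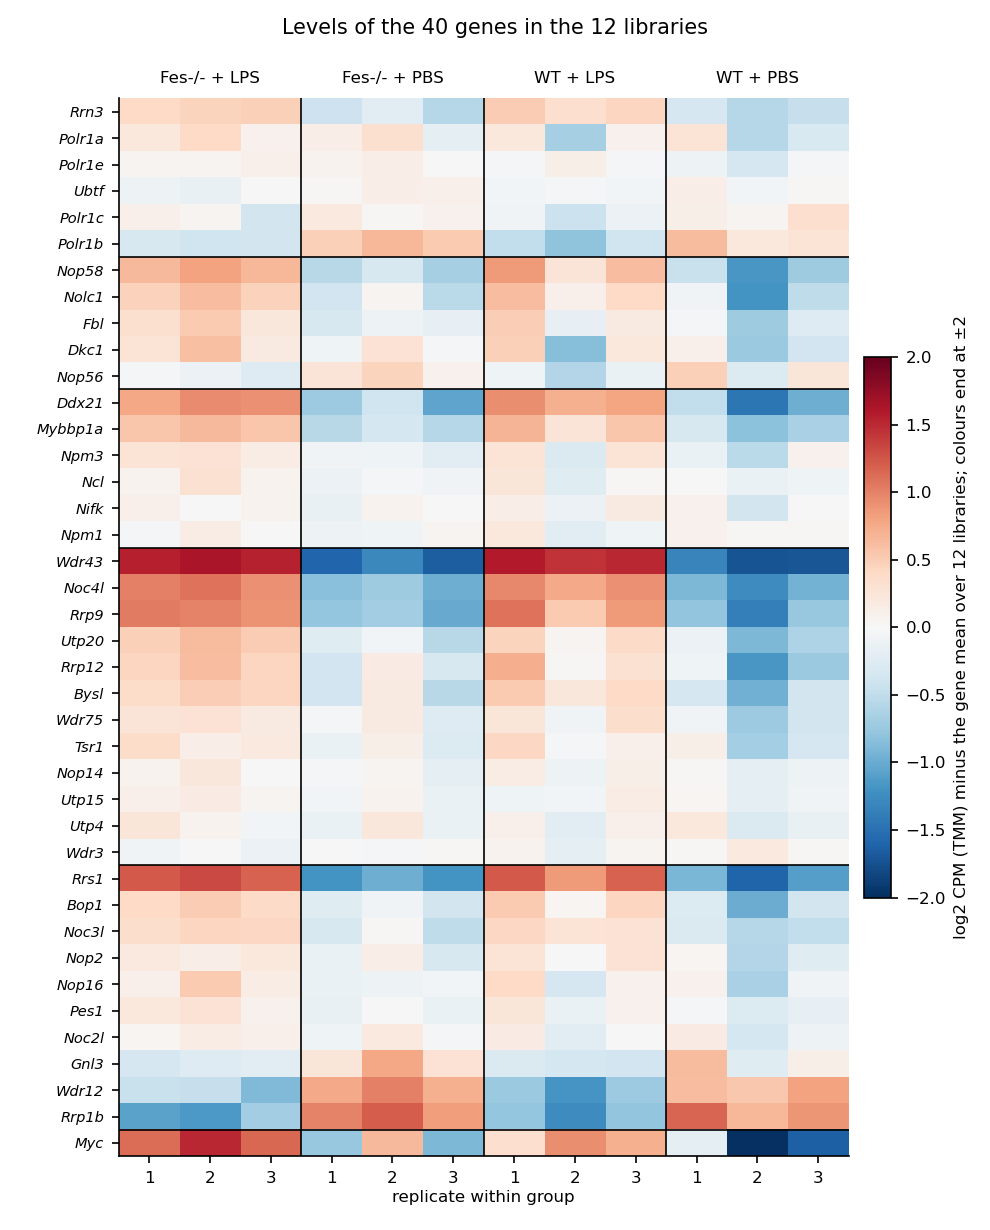
Level of each of the 40 genes (rows, by role from Pol I at the top to Myc at the bottom) in each of the 12 libraries (columns, by group and replicate), as log2 CPM minus the mean of that gene over all 12 libraries. Wdr43, Rrs1, Noc4l and Rrp9 are higher in all 6 LPS libraries, Rrp1b and Wdr12 are lower in them, and replicate 2 of the wild type has the lowest value of the 6 libraries of its treatment for 35 of the 40 genes under LPS and 36 under PBS.

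Levels between genes can be compared only per length, on the deposited TPM scale. The lengths it implies match the union of all annotated exons of a gene, which can exceed the length of its main transcript. The order given here thus depends in part on the annotation. In wild-type PBS cells Ncl had 401 CPM and Npm1 328 CPM, with exon unions of 10188 and 2665 bases. On the TPM scale Npm1 was the highest of the 40 genes in wild-type PBS cells, at 573 ± 15.2 TPM (SD, n = 3, as for all levels below). It was followed by Ncl at 182 ± 7.39 TPM and Pes1 at 122 ± 9.77 TPM. The ranges of these 3 genes over the libraries did not overlap. The next in order, Mybbp1a at 63.7 ± 11.2 TPM, Noc2l at 63 ± 11.3 TPM and Ubtf at 56.8 ± 3.55 TPM, were within their spread of each other. The length implied for Noc2l differed by 44.9% from its annotated exons, so its place in the order is uncertain. Polr1e had the lowest mean at 4.29 ± 0.448 TPM, below Rrp1b at 6.69 ± 1.12 TPM, Myc at 6.93 ± 6.06 TPM and Rrp12 at 7.0 ± 2.69 TPM. Rrp1b, Myc and Rrp12 did not differ beyond their spread. The libraries of Myc ranged from 2.07 to 13.7 TPM, which spans the 3.78 to 4.64 TPM of Polr1e. The order was not kept under LPS, where Wdr43 stood at 95.5 ± 4.83 TPM in wild-type cells, close to Ncl at 102 ± 17.2 TPM, although Wdr43 was at 21.6 ± 3.48 TPM under PBS.

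The first comparison asks how 4 h of LPS changed these genes in each genotype. LPS raised a subset of the assembly genes strongly and lowered another, while most subunits of Pol I and the abundant nucleolar chaperones had small values. By edgeR's quasi-likelihood test with Benjamini-Hochberg adjustment over all 15801 genes, called under an adjusted p of 0.05, LPS raised 16 genes and lowered 5 in Fes-/- cells, and raised 20 and lowered 6 in wild type. The background was high: 73.2% of all tested genes were called in Fes-/- cells and 73.4% in wild type, against 52.5% and 65.0% of the 40 genes. The lower share of the 40 genes depended on the fit. With the replicate number as a block, 30 of 40 were called in Fes-/- cells and 29 of 40 in wild type. Of all 15801 tested genes, 11877 and 11862 were then called. By direction, the test placed 34.3% of all genes higher and 38.9% lower in Fes-/- cells, and 34.6% higher and 38.8% lower in wild type. In both genotypes together 16 genes were called higher in each, 4 were called lower in each, 13 were called in neither, and 7 were called in 1 genotype. The matching shares of all tested genes over both genotypes were not counted. In both genotypes the same 7 genes rose at least 2-fold (Wdr43, Rrs1, Noc4l, Rrp9, Ddx21, Nop58 and Mybbp1a), with Myc as an eighth in wild type, and the same 2 fell at least 2-fold (Rrp1b and Wdr12), where 19.4% of all tested genes rose and 24.1% fell by that much in Fes-/- cells, and 19.8% and 24.1% in wild type. All 3 LPS libraries lay above all 3 PBS libraries for 21 of 40 genes in Fes-/- cells (36.3% of all tested genes) and 15 of 40 in wild type (35.4%), and below them for 6 (41.0%) and 5 (39.8%).

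These directions depend on how libraries are scaled, and the composition of the RNA differed between the treatments. The TMM method, which takes most genes as unchanged, gave scaling factors of 0.707 to 0.737 in the LPS libraries and 1.35 to 1.40 in the PBS libraries, a mean log2 difference of -0.92. The 50 most abundant genes held 20.0% to 20.7% of the counts in LPS libraries and 14.5% to 16.4% in PBS libraries. With TMM the median log2 change of all tested genes was -0.083 in Fes-/- cells and -0.072 in wild type, and the median of the 40 genes was 0.30 in Fes-/- cells and 0.31 in wild type. With library totals alone the median of all genes was -1.01 in Fes-/- cells and -0.98 in wild type, and that of the 40 genes was -0.64 and -0.60. Relative to the median of all genes, the 40 genes thus had a median of 0.38 in both genotypes under either scaling, both of which shift all genes of a library alike, with 33 of 40 genes above the median of all genes in Fes-/- cells and 32 of 40 in wild type. With limma-trend on log2(TPM + 1) that relative median was 0.093 in Fes-/- cells and 0.098 in wild type, with 23 of 40 genes above the median of all genes in each. With log2(TPM + 0.1) it was 0.32 in Fes-/- cells and 0.29 in wild type, with 32 and 31 of 40 genes above. Under library totals edgeR placed 5 of the 40 genes higher and 24 lower in Fes-/- cells and 6 higher and 24 lower in wild type. Of all tested genes 15.9% were then called higher and 70.0% lower in Fes-/- cells (85.9% in all), and 16.3% and 68.5% in wild type (84.8% in all). In bulk RNA, a change in the share of cells and a change in RNA per cell cannot be told apart. Of the 16 genes that rose in both genotypes with TMM, Wdr43, Rrs1, Noc4l, Rrp9 and Ddx21 were called higher in both under library totals too. Nop58 and Mybbp1a kept a positive sign in both without a call in both, and the other 9 turned sign in at least 1 genotype. The 4 genes that fell in both, Rrp1b, Wdr12, Polr1b and Gnl3, were called lower under library totals too. That scaling moves every LPS change down by about 0.92, so this adds no support to their fall. "Rose" and "fell" below refer to the TMM scale.

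**Figure D2:**
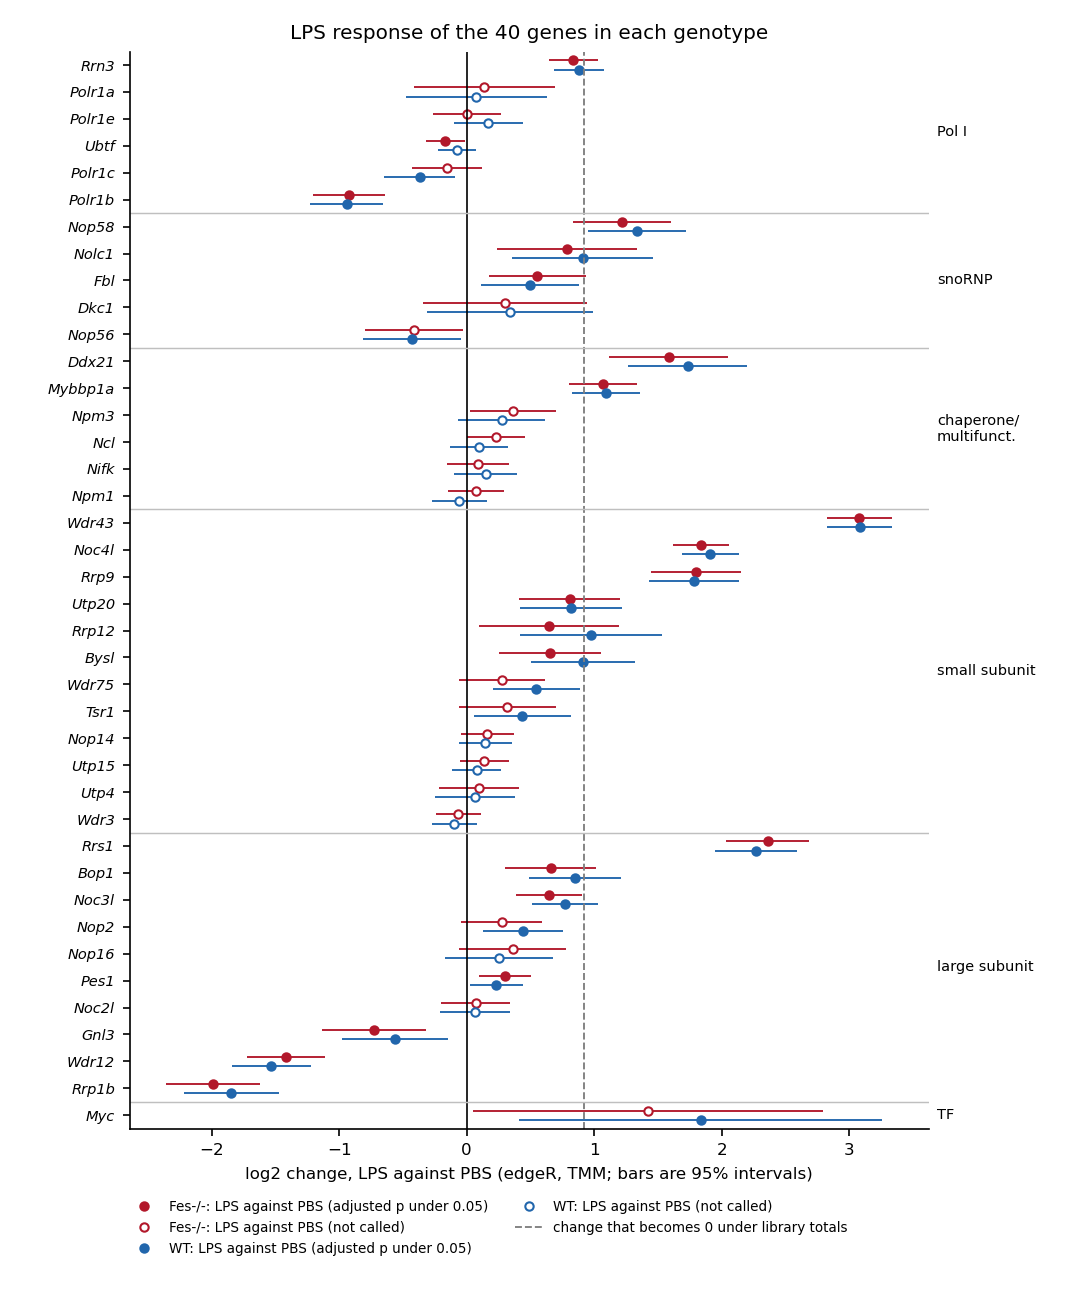
Log2 change under LPS against PBS for each of the 40 genes (rows, by role) in Fes-/- cells (red, upper point of each pair) and wild type (blue, lower point), with 95% intervals from the edgeR fit. Filled points passed an adjusted p of 0.05, and the dashed line marks 0.92, the mean shift between the 2 scalings, near which a change becomes 0 when library totals replace the TMM factors.

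Of the 6 genes of Pol I and its factors, LPS raised 1 in both genotypes and lowered 1 in both. Rrn3, also known as TIF-IA, joins Pol I to the ribosomal DNA promoter. It had 48.3, 49.5 and 51 CPM in Fes-/- LPS libraries against 27.6, 31.1 and 24.6 CPM in Fes-/- PBS libraries, and 52.2, 46 and 49.3 CPM in wild-type LPS libraries against 28.9, 24.6 and 26.5 CPM in wild-type PBS libraries. All LPS libraries lay above all PBS libraries, and Rrn3 rose by 0.84 ± 0.091 in Fes-/- cells (adjusted p = 8.08e-07) and 0.88 ± 0.091 in wild type (adjusted p = 4.52e-07) on the log2 scale. Under library totals the values were -0.098 in Fes-/- cells and -0.028 in wild type, so its rise is a rise relative to most other genes.

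Polr1b, the second-largest subunit of the polymerase, went the other way. It had 6.5, 6.18 and 6.28 CPM in Fes-/- LPS libraries against 11.4, 12.9 and 11.7 CPM in Fes-/- PBS libraries, and 5.81, 4.64 and 6.18 CPM in wild-type LPS libraries against 12.6, 9.44 and 9.82 CPM in wild-type PBS libraries. The groups did not overlap in either genotype, and the log2 change was -0.92 ± 0.13 in Fes-/- cells (adjusted p = 1.49e-05) and -0.94 ± 0.13 in wild type (adjusted p = 1.44e-05). The largest subunit, Polr1a, had 35, 39.9 and 32.2 CPM in Fes-/- LPS libraries against 33, 37.7 and 26.7 CPM in Fes-/- PBS libraries, and 34.8, 19 and 32.2 CPM in wild-type LPS libraries against 36.7, 20.4 and 24.5 CPM in wild-type PBS libraries. Its groups overlapped in both genotypes, replicate 2 was far below the other wild-type libraries under LPS, and neither change was called, at 0.14 ± 0.25 in Fes-/- cells (adjusted p = 0.634) and 0.077 ± 0.25 in wild type (adjusted p = 0.795).

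Polr1c, a subunit that Pol I shares with RNA polymerase III, had 18.7, 18 and 13.4 CPM in Fes-/- LPS libraries against 19.9, 17.6 and 18.3 CPM in Fes-/- PBS libraries, and 16.5, 12.9 and 15.9 CPM in wild-type LPS libraries against 18.8, 18 and 21.8 CPM in wild-type PBS libraries. The groups overlapped in Fes-/- cells and did not in wild type, and the log2 change was -0.15 ± 0.13 in Fes-/- cells (adjusted p = 0.295) and -0.37 ± 0.13 in wild type (adjusted p = 0.0190). Polr1e, a Pol I subunit of the elongation-promoting heterodimer, was the lowest of the 6, with 4.14, 4.13 and 4.29 CPM in Fes-/- LPS libraries against 4.2, 4.37 and 3.98 CPM in Fes-/- PBS libraries, and 3.94, 4.32 and 3.88 CPM in wild-type LPS libraries against 3.72, 3.16 and 3.9 CPM in wild-type PBS libraries. Its LPS and PBS libraries overlapped in both genotypes and the changes were -0.00050 ± 0.12 in Fes-/- cells (adjusted p = 0.997) and 0.17 ± 0.13 in wild type (adjusted p = 0.239). Ubtf, the protein that coats active ribosomal DNA, had 73, 70.6 and 79 CPM in Fes-/- LPS libraries against 79.6, 86 and 84.4 CPM in Fes-/- PBS libraries, and 75.2, 77.4 and 75.3 CPM in wild-type LPS libraries against 85.6, 75.4 and 79.2 CPM in wild-type PBS libraries. Its small change of -0.17 ± 0.071 in Fes-/- cells (adjusted p = 0.0446) and -0.076 ± 0.071 in wild type (adjusted p = 0.348) was called in Fes-/- cells, where the groups did not overlap, but that call was lost without any 1 of 11 libraries. Under library totals all 6 genes had negative values, and all except Rrn3 were called lower in both genotypes.

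Of the 5 snoRNP genes, 3 rose in both genotypes. Nop58, a core protein of the box C/D particles that guide methylation of ribosomal RNA, had 56.2, 62.8 and 56.4 CPM in Fes-/- LPS libraries against 24.4, 28.6 and 22.5 CPM in Fes-/- PBS libraries, and 64.4, 43 and 55.1 CPM in wild-type LPS libraries against 26.4, 16 and 21.9 CPM in wild-type PBS libraries. All LPS libraries were above all PBS libraries and the log2 change was 1.22 ± 0.18 in Fes-/- cells (adjusted p = 3.87e-05) and 1.335 ± 0.18 in wild type (adjusted p = 1.74e-05). Its partner in the same particle, Nop56, had negative values, at -0.41 ± 0.18 in Fes-/- cells (adjusted p = 0.0511) and -0.43 ± 0.18 in wild type (adjusted p = 0.0439), the only negative values among the 5 genes.

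Nolc1 (Nopp140), which binds and assembles snoRNPs, had 44.1, 49.3 and 43.9 CPM in Fes-/- LPS libraries against 24.5, 33 and 22 CPM in Fes-/- PBS libraries, and 49, 34.4 and 42 CPM in wild-type LPS libraries against 30.4, 13.9 and 22.4 CPM in wild-type PBS libraries. Its groups did not overlap, and it rose by 0.79 ± 0.25 in Fes-/- cells (adjusted p = 0.0143) and 0.91 ± 0.25 in wild type (adjusted p = 0.00676). Fbl (fibrillarin), the methyltransferase of the box C/D particles, had 38.7, 44.9 and 36.3 CPM in Fes-/- LPS libraries against 24.9, 29.1 and 27.7 CPM in Fes-/- PBS libraries, and 43.7, 27.9 and 35.1 CPM in wild-type LPS libraries against 30.5, 19.1 and 26.1 CPM in wild-type PBS libraries. The wild-type groups overlapped through replicate 2 under LPS, and the rise was 0.55 ± 0.18 in Fes-/- cells (adjusted p = 0.0123) and 0.49 ± 0.18 in wild type (adjusted p = 0.0225). Reads of Fbl may be shared, since a stretch of 690 bases at 99.6% identity lies in a transcript of Tulp4. Over all libraries Tulp4 had 53654 reads, against 26581 for Fbl. Ddx21, Nop56, Npm1, Npm3, Pes1, Tsr1 and Wdr12 also have near-identical copies elsewhere (at least 95% over at least 200 bases), mostly annotated pseudogenes. For Wdr12 they include stretches of 208 bases in Ppip5k1 and 206 bases in Tmod3. Over all libraries these 2 genes had 11048 and 187781 reads, against 15775 for Wdr12. For Ddx21, Nop56, Npm1, Npm3, Pes1 and Tsr1 each copy had at most 0.472% of the reads of the gene itself. The values of all 8 genes with copies, Fbl among them, are uncertain to a degree that was not tested. Dkc1, the pseudouridine synthase of the box H/ACA particles, was not called, at 0.30 in Fes-/- cells and 0.34 in wild type.

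Of the 6 nucleolar chaperones and multifunctional proteins, Ddx21 and Mybbp1a rose and the other 4 were not called. Ddx21, an RNA helicase that acts in both Pol I and RNA polymerase II transcription, had 133, 149.6 and 146 CPM in Fes-/- LPS libraries against 46.9, 58.6 and 37.5 CPM in Fes-/- PBS libraries, and 148, 128 and 134 CPM in wild-type LPS libraries against 55.2, 28.5 and 39.5 CPM in wild-type PBS libraries. The groups did not overlap, the rise was 1.58 ± 0.21 in Fes-/- cells (adjusted p = 2.73e-05) and 1.73 ± 0.21 in wild type (adjusted p = 1.29e-05), and under library totals it was 0.65 in Fes-/- cells and 0.82 in wild type, still called in both. Mybbp1a, a nucleolar protein that binds MYB and takes part in Pol I regulation, had 174, 186 and 176 CPM in Fes-/- LPS libraries against 81.1, 93.7 and 80.4 CPM in Fes-/- PBS libraries, and 191, 143 and 176 CPM in wild-type LPS libraries against 95.1, 67.5 and 76.2 CPM in wild-type PBS libraries. It rose by 1.07 ± 0.12 in Fes-/- cells (adjusted p = 2.09e-06) and 1.09 ± 0.13 in wild type (adjusted p = 1.69e-06).

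Npm3, a relative of nucleophosmin, had 15.2, 15.5 and 14 CPM in Fes-/- LPS libraries against 12, 11.9 and 10.8 CPM in Fes-/- PBS libraries, and 15.2, 10.3 and 15.2 CPM in wild-type LPS libraries against 11.5, 8.69 and 13.4 CPM in wild-type PBS libraries. The Fes-/- groups did not overlap and the wild-type groups did, and neither change was called, at 0.36 ± 0.16 in Fes-/- cells (adjusted p = 0.0506) and 0.27 ± 0.16 in wild type (adjusted p = 0.132). The 2 most abundant genes, Npm1 (nucleophosmin, a histone and ribosomal protein chaperone) and Ncl (nucleolin), were not called. The log2 value of Npm1 was 0.074 in Fes-/- cells and -0.059 in wild type, and that of Ncl was 0.23 in Fes-/- cells and 0.097 in wild type. Nifk, a nucleolar partner of Ki-67, had 0.090 in Fes-/- cells and 0.15 in wild type. At these read numbers the 95% intervals of Npm1, Ncl and Nifk all lay within a 2-fold change in both genotypes.

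The 12 genes of small-subunit assembly included Wdr43, the gene with the largest rise of the 40. None of the 12 was called lower in either genotype, 6 were called higher in Fes-/- cells and 8 in wild type. Wdr43, the counterpart of yeast Utp5 in the first complex that binds the nascent precursor RNA, had 194, 205 and 192 CPM in Fes-/- LPS libraries against 22, 27 and 20.9 CPM in Fes-/- PBS libraries, and 198, 180.1 and 187 CPM in wild-type LPS libraries against 26.3, 20.01 and 20.2 CPM in wild-type PBS libraries. Every LPS library stood far above every PBS library, and the fitted change between the groups was 8.44-fold in Fes-/- cells and 8.48-fold in wild type. The gene lies on the plus strand at chr17:71615895-71659031 of GRCm38. The log2 change was 3.08 ± 0.12 in Fes-/- cells (adjusted p = 6.95e-12) and 3.08 ± 0.12 in wild type (adjusted p = 6.96e-12), and under library totals it was 2.14 in Fes-/- cells and 2.17 in wild type.

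Noc4l works with Nop14 late in nucleolar assembly of the small subunit in yeast. It had 75.2, 79.3 and 70.9 CPM in Fes-/- LPS libraries against 21, 23.1 and 19 CPM in Fes-/- PBS libraries, and 73.1, 63.5 and 71 CPM in wild-type LPS libraries against 20.1, 15.7 and 19.4 CPM in wild-type PBS libraries. It rose by 1.84 ± 0.10 in Fes-/- cells (adjusted p = 4.42e-10) and 1.91 ± 0.10 in wild type (adjusted p = 2.92e-10), with no overlap. Rrp9, a protein of the U3 snoRNP that is needed for the first cuts of the precursor, had 25.1, 24.5 and 23 CPM in Fes-/- LPS libraries against 7.15, 7.6 and 6.09 CPM in Fes-/- PBS libraries, and 26, 17.6 and 22.1 CPM in wild-type LPS libraries against 7.12, 4.77 and 7.23 CPM in wild-type PBS libraries. It rose by 1.80 ± 0.16 in Fes-/- cells (adjusted p = 1.49e-07) and 1.78 ± 0.16 in wild type (adjusted p = 1.73e-07), also with no overlap.

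The promoters of these 3 genes and of Rrn3 are shown as examples in which the motif CACGTG, the E-box bound by MYC with MAX, could be looked for. All of these genes rose on the TMM scale, but Rrn3 rose less than the other 3. Rrn3 alone among them was not called higher under library totals. Each window runs from 250 bases before to 30 bases after the annotated start on the strand of the gene, from RefSeq on GRCm38.p6, and capitals mark CACGTG. The windows are chr17:71615965-71616244 on the plus strand for Wdr43, chr16:13780449-13780728 on the plus strand for Rrn3, chr5:110653353-110653632 on the minus strand for Noc4l and chr9:106477059-106477338 on the plus strand for Rrp9.
Wdr43: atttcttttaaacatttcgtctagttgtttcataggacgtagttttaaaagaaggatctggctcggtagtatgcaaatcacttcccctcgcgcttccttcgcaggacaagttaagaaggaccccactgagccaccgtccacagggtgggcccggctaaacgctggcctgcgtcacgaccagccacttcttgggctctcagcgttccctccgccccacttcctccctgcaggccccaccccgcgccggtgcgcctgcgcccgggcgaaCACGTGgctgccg
Rrn3: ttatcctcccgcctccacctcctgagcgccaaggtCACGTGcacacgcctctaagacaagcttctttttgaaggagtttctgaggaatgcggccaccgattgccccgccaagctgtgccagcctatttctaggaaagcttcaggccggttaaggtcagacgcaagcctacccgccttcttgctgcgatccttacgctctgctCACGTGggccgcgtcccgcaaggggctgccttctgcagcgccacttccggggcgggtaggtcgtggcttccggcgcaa
Noc4l: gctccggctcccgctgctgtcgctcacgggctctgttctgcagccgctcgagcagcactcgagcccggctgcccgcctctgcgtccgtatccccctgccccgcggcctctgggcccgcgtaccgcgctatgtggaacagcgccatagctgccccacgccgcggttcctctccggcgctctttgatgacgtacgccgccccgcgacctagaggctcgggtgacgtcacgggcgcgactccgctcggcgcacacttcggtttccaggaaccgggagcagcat
Rrp9: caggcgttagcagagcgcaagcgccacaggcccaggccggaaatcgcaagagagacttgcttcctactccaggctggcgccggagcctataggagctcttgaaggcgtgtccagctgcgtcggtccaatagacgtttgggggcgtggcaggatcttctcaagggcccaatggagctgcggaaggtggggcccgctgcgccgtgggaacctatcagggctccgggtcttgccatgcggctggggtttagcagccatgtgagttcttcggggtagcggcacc
Wdr43 held 1 match, at position 18 after the start, and Rrn3 held 2, at positions -215 and -48. Noc4l and Rrp9 held none in these windows. The motif is its own reverse complement, so both strands are read at once. Over the 300-base windows of the table, 34 of the 40 genes could be matched by symbol and 8 of the 34 (23.5%) held CACGTG: Wdr43, Rrn3, Mybbp1a, Utp20, Pes1, Tsr1, Nop2 and Utp4. Of all 27025 genes in the table, 2187 (8.09%) held it. Of these 8, Wdr43, Rrn3, Mybbp1a, Utp20 and Pes1 rose in both genotypes, Tsr1 and Nop2 were called higher in wild type, and Utp4 was called in neither. Among the genes with a window and no match, Nop58, Nolc1, Ddx21, Noc4l, Rrp9, Bysl and Noc3l also rose in both genotypes. Polr1b, Wdr12, Rrp1b and Gnl3, also without a match, fell in both. Of all tested genes 34.3% were called higher in Fes-/- cells and 34.6% in wild type. Each of these shares is for a single genotype, and the share called higher in both was not counted. No difference between genes with and without a match was tested. Rrs1, Npm1, Fbl, Bop1, Rrp12 and Myc had no window. For Mybbp1a and Nop2, among the 8 with CACGTG, the window did not match the start of an annotated transcript of the gene. A match describes these letters and says nothing of binding.

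**Figure D3:**
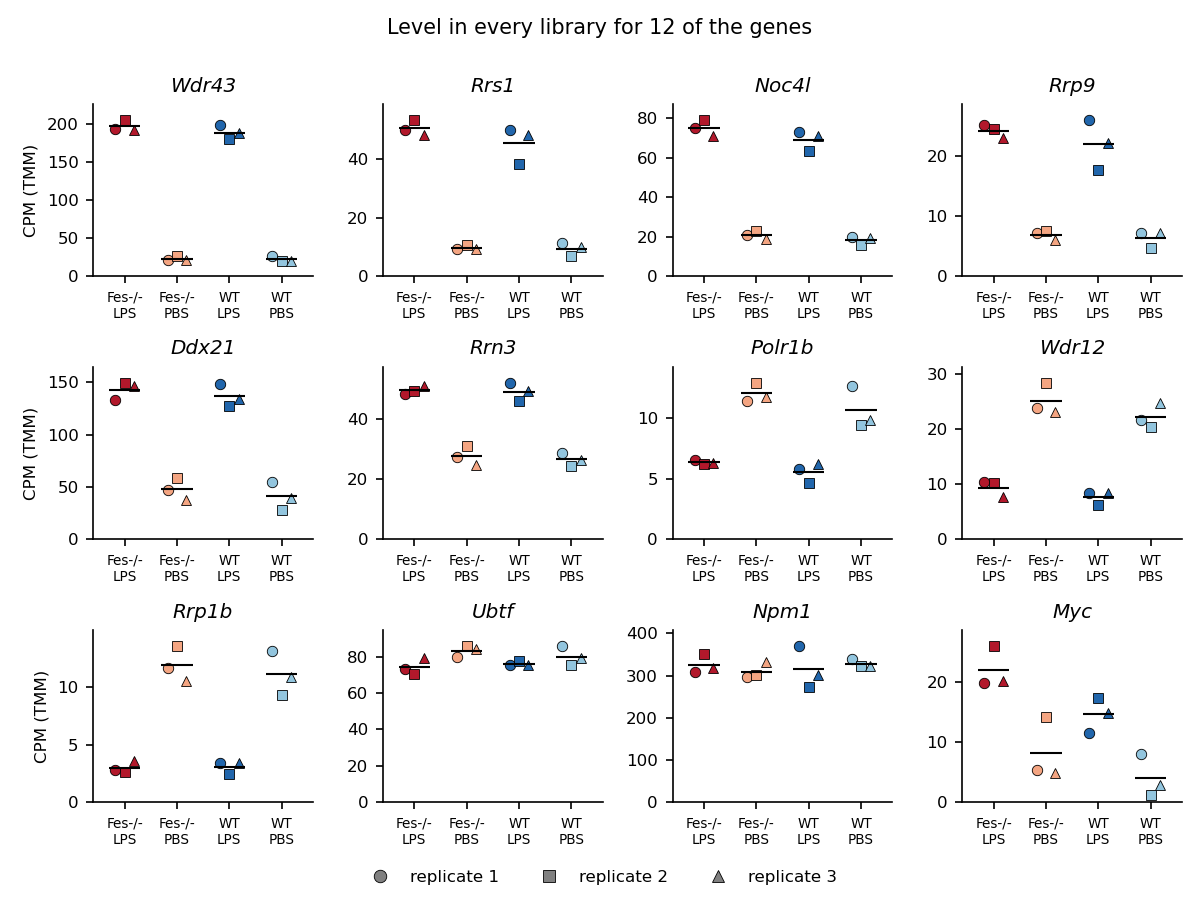
CPM (TMM scale, linear axis from 0) of 12 of the genes in every library, with 3 points per group marked by replicate and a line at the group mean. LPS libraries stand above PBS libraries for Wdr43, Rrs1, Noc4l, Rrp9, Ddx21 and Rrn3, below them for Polr1b, Wdr12 and Rrp1b, and close to them for Ubtf and Npm1, while Myc shows the widest spread within groups.

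The remaining 9 small-subunit genes ranged from -0.064 to 0.81 in Fes-/- cells and from -0.096 to 0.97 in wild type. Utp20, a large scaffold protein, rose by 0.81 in Fes-/- cells and 0.82 in wild type. Rrp12, an export factor, rose by 0.65 in Fes-/- cells and 0.97 in wild type, and Bysl, the counterpart of yeast Enp1, by 0.65 in Fes-/- cells and 0.91 in wild type, each called in both genotypes. Wdr75 and Tsr1 were called higher in wild type, at 0.54 ± 0.16 (adjusted p = 0.00660) and 0.44 ± 0.18 (adjusted p = 0.0386), and had 0.27 ± 0.16 and 0.32 ± 0.18 in Fes-/- cells without a call. The difference between the genotypes was not called for either. Nop14, Wdr3, Utp4 and Utp15 were called in neither genotype. It is not known whether the counting used strand, and Tsr1 shares 32.3% of its exon bases with Srr on the other strand, Wdr3 16.2% with Spag17 and Gdap2, and Bysl 9.37% with Ccnd3, so reads of these genes may be mixed with those of their neighbours.

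The 10 genes of large-subunit assembly split. LPS raised 4 and lowered 3 in Fes-/- cells, and raised 5 and lowered 3 in wild type. Rrs1, which in yeast helps load a ribonucleoprotein onto the early large subunit, had 49.96, 53.6 and 48.3 CPM in Fes-/- LPS libraries against 9.37, 10.8 and 9.35 CPM in Fes-/- PBS libraries, and 50.03, 38.6 and 48.3 CPM in wild-type LPS libraries against 11.3, 7.06 and 10.02 CPM in wild-type PBS libraries. The groups did not overlap, and Rrs1, at chr1:9545408-9547455 on the plus strand, rose 5.13-fold in Fes-/- cells and 4.82-fold in wild type. The log2 change was 2.36 ± 0.15 in Fes-/- cells (adjusted p = 3.54e-09) and 2.27 ± 0.15 in wild type (adjusted p = 5.44e-09), and under library totals it was 1.43 in Fes-/- cells and 1.36 in wild type.

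Rrp1b, a nucleolar protein related to yeast Rrp1, had 2.8, 2.65 and 3.61 CPM in Fes-/- LPS libraries against 11.7, 13.6 and 10.5 CPM in Fes-/- PBS libraries, and 3.43, 2.46 and 3.4 CPM in wild-type LPS libraries against 13.1, 9.36 and 10.9 CPM in wild-type PBS libraries. The groups did not overlap and the log2 change of Rrp1b, at chr17:32036100-32062865 on the plus strand, was -1.99 ± 0.17 in Fes-/- cells (adjusted p = 6.52e-08) and -1.85 ± 0.17 in wild type (adjusted p = 1.62e-07). Wdr12 forms the PeBoW complex with Pes1 and Bop1, a complex needed to process the large-subunit RNA. It had 10.3, 10.2 and 7.59 CPM in Fes-/- LPS libraries against 23.7, 28.4 and 23 CPM in Fes-/- PBS libraries, and 8.39, 6.2 and 8.46 CPM in wild-type LPS libraries against 21.5, 20.4 and 24.6 CPM in wild-type PBS libraries. The groups did not overlap and the change was -1.42 ± 0.14 in Fes-/- cells (adjusted p = 3.46e-07) and -1.53 ± 0.15 in wild type (adjusted p = 1.74e-07).

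The 3 PeBoW genes did not move as one, since Bop1 and Pes1 were called higher while Wdr12 was called lower. Bop1 changed by 0.66 ± 0.17 in Fes-/- cells (adjusted p = 0.00280) and 0.85 ± 0.17 in wild type (adjusted p = 0.000427) and Pes1 by 0.30 ± 0.096 in Fes-/- cells (adjusted p = 0.0116) and 0.23 ± 0.096 in wild type (adjusted p = 0.0407). Under library totals Bop1 and Pes1 had negative values in both genotypes, with Pes1 called lower, and Wdr12 had -2.35 in Fes-/- cells and -2.44 in wild type. Gnl3 (nucleostemin, a nucleolar GTPase of proliferating cells) was also called lower, at -0.73 ± 0.19 in Fes-/- cells (adjusted p = 0.00338) and -0.56 ± 0.19 in wild type (adjusted p = 0.0172). Noc3l rose by 0.65 in Fes-/- cells and 0.77 in wild type. Nop2, an RNA methyltransferase, was called higher in wild type, at 0.44 ± 0.15 (adjusted p = 0.0149), against 0.27 ± 0.15 in Fes-/- cells. Nop16 and Noc2l were called in neither, and 20.9% of the exon bases of Noc2l overlap Samd11 on the other strand.

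Myc was the most variable of the 40 genes. It had 19.8, 26 and 20.1 CPM in Fes-/- LPS libraries against 5.4, 14.2 and 4.89 CPM in Fes-/- PBS libraries, and 11.5, 17.4 and 14.9 CPM in wild-type LPS libraries against 8.05, 1.21 and 2.93 CPM in wild-type PBS libraries. All LPS libraries were above all PBS libraries within a genotype, but Fes-/- PBS replicate 2 was above wild-type LPS replicate 1. The log2 change was 1.42 ± 0.61 in Fes-/- cells (adjusted p = 0.0595) and 1.83 ± 0.63 in wild type (adjusted p = 0.0248), and DESeq2 gave adjusted p = 0.0332 in Fes-/- cells and 0.00577 in wild type. Under library totals it was 0.48 in Fes-/- cells and 0.92 in wild type and was not called. In PBS libraries Fes-/- replicate 2 had both the highest Myc level and the highest level of most of the other genes, and wild-type replicate 2 the lowest of both. Under LPS this held only in part. Fes-/- replicate 2 had the highest Myc level, at 26 CPM, and was highest for 16 of 39 other genes, more than any other LPS library. Wild-type replicate 2 was again lowest for most genes, while its Myc level of 17.4 CPM was the highest of the wild-type LPS libraries.

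Several partners and antagonists of MYC changed under LPS. Of 13 genes of this network apart from Myc, 12 were tested, and 6 were called higher and 5 lower in both genotypes. For comparison, LPS gave a call to 73.2% of the 15801 tested genes in Fes-/- cells (34.3% up, 38.9% down). In wild type the share was 73.4% (34.6% up, 38.8% down). How many of those moved alike in the 2 genotypes was not counted, and no difference between them and the network was tested. Mycl, a paralog of Myc, rose to 87 ± 4.95 CPM in Fes-/- LPS cells against 1.12 ± 0.167 CPM in Fes-/- PBS cells, and to 65.8 ± 9.99 CPM against 0.664 ± 0.223 CPM in wild type. On the log2 scale Max, the shared partner, rose by 2.00 in Fes-/- cells and 1.88 in wild type. Mxd1, a repressor that competes for MAX, rose by 4.61 in Fes-/- cells and 4.60 in wild type. Mnt, another MAX-binding repressor, fell to 1.29 ± 0.0647 CPM in Fes-/- LPS cells against 67.6 ± 2.81 CPM in Fes-/- PBS cells, and to 1.3 ± 0.237 CPM against 76.1 ± 15.5 CPM in wild type. The log2 change of Mxd3 was -5.22 in Fes-/- cells and -4.97 in wild type, and that of Mxd4 was -3.58 in Fes-/- cells and -3.73 in wild type. All of these exceed the difference of 0.92 between the 2 scalings, and all 6 kept their direction and their call under library totals. For Mnt, Mxd3 and Mxd4, which fell, this adds no support, since that scaling moves every LPS change down.

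Several of the calls among the 40 genes rest on single libraries, since leaving out 1 of the 12 moves them across the threshold of 0.05. In Fes-/- cells the rise of Fbl (adjusted p = 0.0522) and of Pes1 (adjusted p = 0.0525) was lost without LPS replicate 2, and that of Rrp12 without any of 5 Fes-/- libraries (adjusted p = 0.0593 to 0.0966), namely all 3 LPS libraries and PBS replicates 1 and 3. The call of Ubtf was lost without any library except LPS replicate 3 (adjusted p = 0.0515 to 0.186). In wild type the calls lost without 1 library were those of Polr1c (PBS replicate 3 or LPS replicate 2, adjusted p = 0.0902 to 0.106), Fbl (PBS replicate 2 or LPS replicate 1, 0.0727 to 0.124), Gnl3 (PBS replicate 1, 0.115), Nop2 (PBS replicate 2, LPS replicate 1 or 3, 0.0522 to 0.0555) and Myc (PBS replicate 2 or 3, LPS replicate 2 or 3, 0.0514 to 0.0785). Nop56 lost its call without any of 9 libraries (0.0512 to 0.199), and Tsr1 (0.0501 to 0.177) and Pes1 (0.0574 to 0.229) without any of 5. Conversely, in Fes-/- cells Nop56, Npm3, Ncl, Wdr75, Tsr1, Nop2, Nop16 and Myc, and in wild type Dkc1 and Npm3, passed the threshold once a certain library was left out. With replicate 2 of the wild type left out of both treatments, 24 higher and 5 lower calls were made in Fes-/- cells and 20 higher and 5 lower in wild type.

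The rest of the pathway was read from 122 genes on 4 further lists, all of them tested. The counts stand beside the shares of all tested genes, 34.3% higher and 38.9% lower in Fes-/- cells and 34.6% higher and 38.8% lower in wild type, and no difference between the lists was tested. Of 46 further genes of small-subunit assembly 31 were called higher and 5 lower in Fes-/- cells, and 33 and 5 in wild type, with a median log2 change of 0.39 and 0.40. Rcl1, a protein of the U3-bound early particle, rose to 64.3 ± 7.17 CPM in Fes-/- LPS cells against 6.33 ± 0.614 CPM in Fes-/- PBS cells, and to 77.2 ± 7.77 CPM against 6.11 ± 0.859 CPM in wild type. Nol10 rose by 2.89 in Fes-/- cells and 2.91 in wild type, and Dcaf13 by 1.98 in Fes-/- cells and 2.06 in wild type. Imp3, a protein of the U3 snoRNP, was called lower at -1.69 in Fes-/- cells and -1.56 in wild type. Utp25 was called lower at -0.74 in Fes-/- cells and -0.58 in wild type, and Nob1, the nuclease that makes the final cut of the small-subunit RNA, at -0.49 in Fes-/- cells and -0.59 in wild type. Of 48 further large-subunit genes 31 were called higher and 8 lower in both genotypes, with medians of 0.39 in Fes-/- cells and 0.41 in wild type. Gtpbp4, the counterpart of yeast Nog1, rose by 1.84 in Fes-/- cells and 1.83 in wild type. Rsl24d1 rose by 1.76 in Fes-/- cells and 1.77 in wild type, and Eif6, which keeps the subunits apart, by 1.64 in Fes-/- cells and 1.84 in wild type. The helicase gene Ddx31 was called lower at -1.30 in Fes-/- cells and -1.20 in wild type. Urb2 was called lower at -0.72 in Fes-/- cells and -0.57 in wild type, and the helicase gene Ddx55 at -0.68 in Fes-/- cells and -0.51 in wild type. Under library totals LPS raised 7 and lowered 33 of the 46 small-subunit genes in Fes-/- cells, and raised 6 and lowered 30 in wild type. Of the 48 large-subunit genes 6 were then called higher and 31 lower in Fes-/- cells, and 8 and 27 in wild type. Of all tested genes 15.9% were called higher and 70.0% lower under library totals in Fes-/- cells, and 16.3% and 68.5% in wild type.

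Of 16 further genes of Pol I and its factors 5 were called higher and 6 lower in both genotypes, shares near those of all tested genes, with medians of -0.029 in Fes-/- cells and -0.051 in wild type. Cd3eap, a Pol I subunit, fell to 2.96 ± 0.379 CPM in Fes-/- LPS cells against 10.7 ± 0.757 CPM in Fes-/- PBS cells, and to 2.85 ± 0.647 CPM against 11.7 ± 1.96 CPM in wild type. Sirt7, a nucleolar deacetylase, was called lower at -0.72 in Fes-/- cells and -0.72 in wild type, and Polr2h, a subunit shared by the nuclear RNA polymerases, at -0.68 in Fes-/- cells and -0.65 in wild type. Taf1b, of the promoter factor SL1, was called higher at 0.71 in Fes-/- cells and 0.69 in wild type. The shared subunit genes Polr2k and Polr2l were called higher too, with 0.64 in Fes-/- cells and 0.60 in wild type for the first and 0.32 in Fes-/- cells and 0.48 in wild type for the second. Under library totals all 16 were called lower in both genotypes, against 70.0% of all tested genes in Fes-/- cells and 68.5% in wild type. Of 12 further snoRNP genes 5 were called higher in both genotypes, and 1 was called lower in Fes-/- cells and none in wild type. Tgs1, which caps snoRNAs, rose by 1.16 in Fes-/- cells and 1.04 in wild type. Nhp2 of the box H/ACA particles rose by 0.64 in Fes-/- cells and 0.66 in wild type, and Snu13 of the box C/D particles by 0.65 in Fes-/- cells and 0.64 in wild type.

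For the neighbouring systems below, the shares of all tested genes were 34.3% higher and 38.9% lower in Fes-/- cells, and 34.6% and 38.8% in wild type. LPS raised 59 and lowered 1 of 81 cytosolic ribosomal protein genes in Fes-/- cells, and raised 58 and lowered 1 in wild type. The median log2 changes were small, at 0.28 in Fes-/- cells and 0.26 in wild type. Under library totals 80 of 81 were called lower in each genotype, against 70.0% of all tested genes in Fes-/- cells and 68.5% in wild type. Rpl27 rose by 0.52 in Fes-/- cells and 0.50 in wild type. The one gene called lower, Rpl13a, had -0.65 in Fes-/- cells and -0.52 in wild type. Rpl24 had the highest log2 change, 1.70 in Fes-/- cells and 2.24 in wild type, at a level of at most 1.28 CPM. Of 22 genes of RNA polymerase III 7 were called higher in both genotypes and 11 (Fes-/- cells) or 12 (wild type) lower, from -2.55 in Fes-/- cells and -2.90 in wild type for Polr3g up to 1.499 in Fes-/- cells and 1.51 in wild type for Bdp1. Among its subunits and factors, Polr3d had 1.22 in Fes-/- cells and 1.32 in wild type, and Polr3gl, the paralog of Polr3g, had -1.22 in Fes-/- cells and -1.20 in wild type. Of 30 cell-cycle genes 1, Cenpe, was called higher, at 0.72 in Fes-/- cells and 0.67 in wild type, and 25 (Fes-/- cells) or 24 (wild type) were called lower, with medians of -0.93 and -0.97. Bub1b, of the spindle checkpoint, had -2.62 in Fes-/- cells and -2.65 in wild type, and Cdc20, the activator of the anaphase complex, had -1.95 in Fes-/- cells and -1.99 in wild type.

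**Figure D4:**
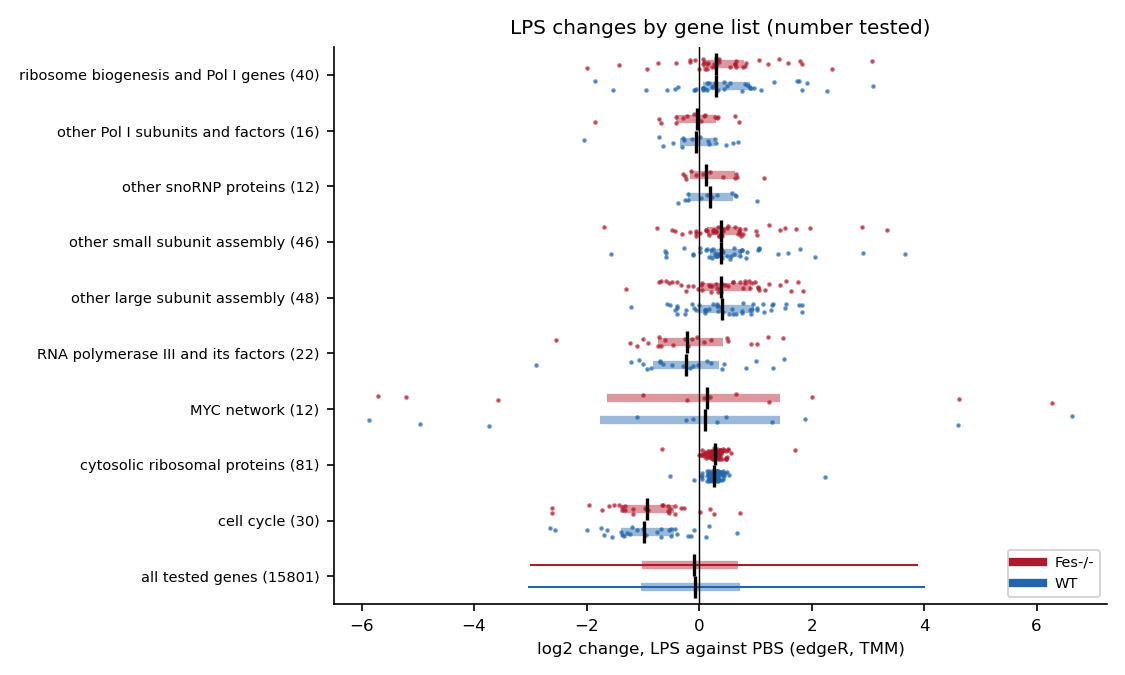
Log2 change under LPS against PBS (TMM scale) of every tested gene on each list, in Fes-/- cells (red, upper) and wild type (blue, lower), with the median as a black tick and the range from the 25th to the 75th percentile as a band; for all 15801 tested genes the thin line spans the 5th to 95th percentile. The 40 genes have medians of 0.30 and 0.31, close to those of the further assembly genes (0.39 to 0.41) and of the ribosomal protein genes (0.28 and 0.26), and the cell-cycle genes have medians of -0.93 and -0.97.

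The second comparison asks whether loss of Fes changed these genes within a treatment. None of the 40 genes was called between genotypes under LPS or under PBS by edgeR, none by DESeq2, and none had an unadjusted p under 0.05 in edgeR. Over all tested genes 17 (0.108%) were called under LPS and 13 (0.0823%) under PBS. Most differences were positive: Fes-/- cells had the higher fitted level for 35 of 40 genes under LPS and 36 of 40 under PBS, with median log2 differences of 0.11 and 0.12, while 49.6% of all tested genes were higher in Fes-/- cells in each treatment. Without replicate 2 of the wild type 22 of 40 genes were higher under LPS and 23 of 40 under PBS, with medians of 0.022 and 0.0088, and 13 genes turned sign in each treatment. Without replicate 2 of Fes-/- instead, 37 of 40 were higher under LPS and 28 of 40 under PBS, with medians of 0.062 and 0.037.

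The most different genes show the size of the spread. Myc differed by 0.59 ± 0.60 under LPS (95% interval -0.77 to 1.95, adjusted p = 0.906 by edgeR) and by 1.00 ± 0.62 under PBS (95% interval -0.40 to 2.40, adjusted p = 0.975 by edgeR). Without replicate 2 of the wild type its values were 0.74 and 0.58. It was the only one of the 40 called with no filter on low counts, in both treatments. Under LPS all Fes-/- libraries lay above all wild-type libraries for Myc, Polr1b and Utp20 (5.78% of all tested genes), and under PBS for Polr1e (3.03%). All Fes-/- libraries lay below all wild-type libraries for none of the 40 genes under LPS (5.63% of all tested genes) or PBS (3.80%). Wdr12 had the smallest p under LPS, with a difference of 0.29 ± 0.15 (adjusted p = 0.790 by edgeR), and Wdr75 under PBS, with 0.33 ± 0.16 (adjusted p = 0.975 by edgeR). Without replicate 2 of the wild type these 2 values were 0.17 and 0.18. For 39 of 40 genes the 95% interval of the difference lay within a 2-fold change in either direction under each treatment, and the exception was Myc. Differences of a size within these intervals are not excluded by these data, with 3 libraries a group.

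**Figure D5:**
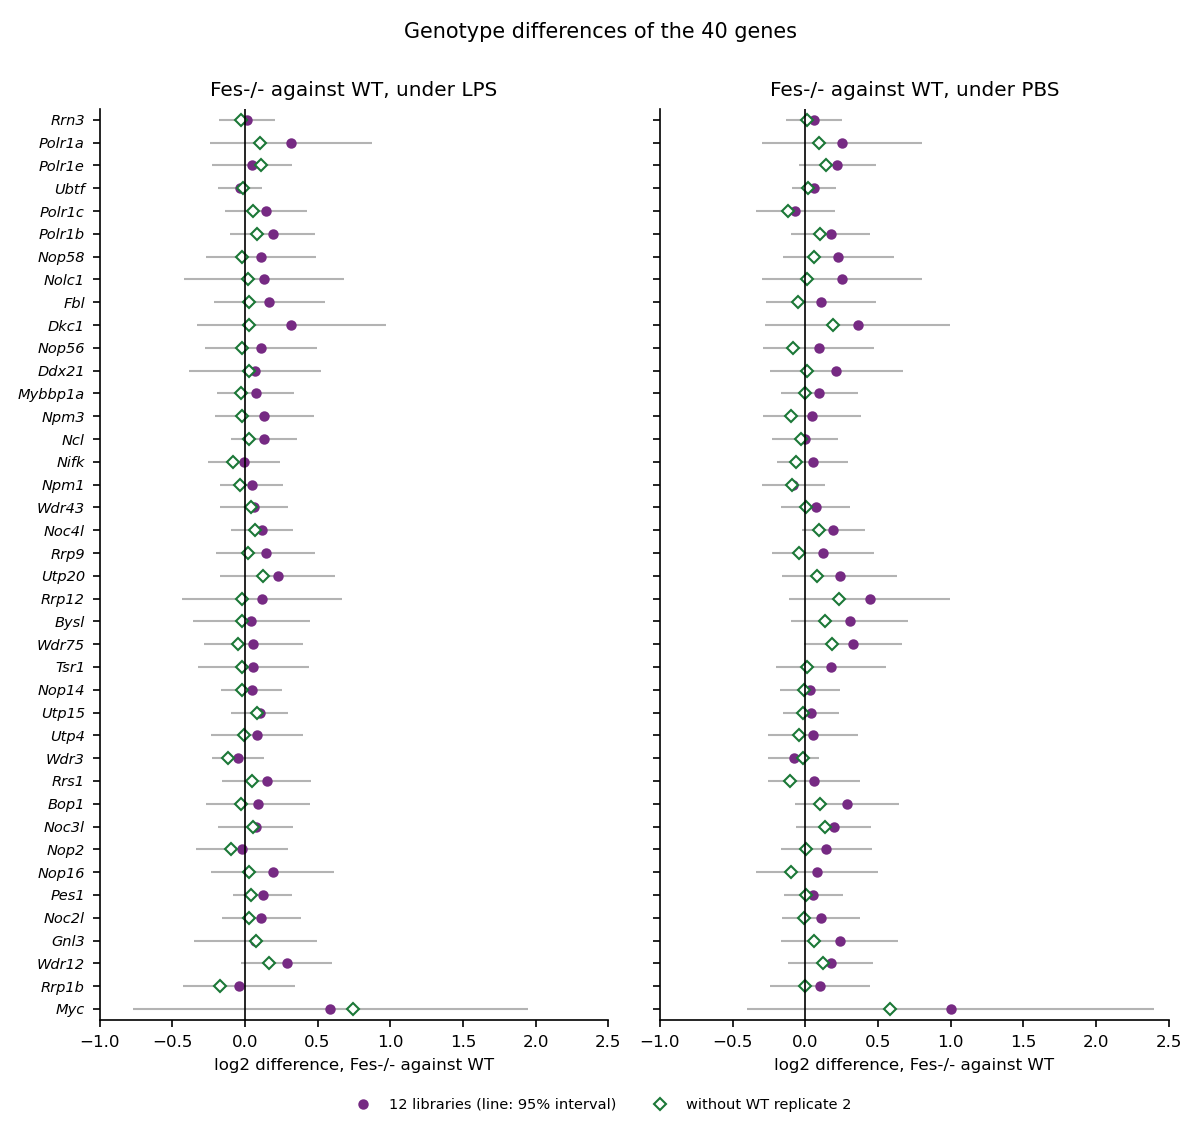
Log2 difference of Fes-/- against wild type for each of the 40 genes (rows, by role) under LPS (left) and PBS (right), with 12 libraries (filled points, 95% interval as a line) and without replicate 2 of the wild type (open diamonds). Most filled points lie right of 0, at medians of 0.11 and 0.12, and the open diamonds lie closer to 0, at medians of 0.022 and 0.0088.

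The third comparison asks whether the LPS response itself differed between genotypes. No difference of the LPS effects was called among the 40 genes by edgeR, where 3 of all tested genes were called (0.019%), or by DESeq2, and none had an unadjusted p under 0.05. The difference, Fes-/- minus wild type, was positive for 18 genes and negative for 22, with a median of -0.015. It was -0.0070 ± 0.16 for Wdr43 (95% interval -0.34 to 0.33), 0.092 ± 0.20 for Rrs1 (-0.35 to 0.53) and -0.14 ± 0.24 for Rrp1b (-0.66 to 0.38), the genes with the largest LPS changes. It was -0.046 ± 0.13 for Rrn3 (-0.32 to 0.23) and 0.016 ± 0.19 for Polr1b (-0.38 to 0.42). The largest was that of Myc, at -0.41 ± 0.86 (-2.36 to 1.53), which was 0.16 without replicate 2 of the wild type. For 38 of 40 genes the interval lay within a 2-fold change. The 7 genes called under LPS in 1 genotype alone, Ubtf in Fes-/- cells and Polr1c, Nop56, Wdr75, Tsr1, Nop2 and Myc in wild type, are therefore not shown to differ between the genotypes.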

How the data were processed

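Poly-A-enriched RNA of 12 libraries was sequenced and reduced by the authors to 2 deposited tables of 55487 genes, one of raw counts per gene and one of TPM, which corrects for transcript length. Tools named in the submitters' processing notes are STAR (2.7.8a), DESeq2 (1.34.0), R (4.1.12) and Picard (2.9.0), and the notes list the builds GRCm38 and mm9 with no role. The counting program and its strand setting are not given in the sources used here. Gene lengths implied by both tables were within 1% of the union of annotated exons in GENCODE M21 (GRCm38) for 9362 of 9495 genes checked (98.6%). Of the 40 genes 39 could be checked and 38 were within 1%, while the length of Noc2l differed by 44.9%.

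Counts were tested with edgeR 4.0.16 (R 4.3.3): filterByExpr kept 15801 of 28358 genes with a count, TMM factors scaled the libraries, and a quasi-likelihood model with 1 mean per group was fitted to all 12 libraries (8 residual degrees of freedom). P-values were adjusted by Benjamini-Hochberg over all tested genes and called under 0.05. Errors of log2 changes are standard errors, derived from the F statistic. CPM values are counts divided by the TMM-scaled library size, on edgeR's usual CPM scale. The procedure was tested on simulated data. Alternatives used DESeq2 1.42.0, limma 3.58.1, other scalings and filters, and left-out libraries. Near-identical copies were searched with BLAST 2.17.0, and the figures were drawn in Python 3.11.15 with matplotlib 3.10.9.

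The 40 genes and all further lists were chosen with earlier results of these data known. Values in every library are given for Myc, Ubtf, Rrn3 and the Polr1 genes and, in each other role, for the 3 genes with the largest LPS change averaged over both genotypes. From each further list the genes named came from up to 3 called genes with the highest and up to 3 with the lowest mean change. Other genes named with single values, such as those of the PeBoW complex, the genotype comparisons and the 4 promoters printed, were chosen after their values were seen. All libraries carry 1 batch date. Same-numbered libraries were not taken as pairs, because not every correlation between them was over 0.1. P-values measure the spread between these libraries, which may in part be technical.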

Additional observations from a re-analysis of the deposited data

How the results depend on the processing

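The direction of many LPS changes depended on the scaling. With library totals in place of the TMM factors, the calls were 5 up and 24 down in Fes-/- cells, and 6 up and 24 down in wild type. With limma-trend on log2(TPM + 1) the counts were 5 and 26 in Fes-/- cells and 5 and 23 in wild type, and with log2(TPM + 0.1) they were 5 and 25 in Fes-/- cells and 5 and 23 in wild type, since TPM values sum to one fixed total per library as well. Of the 40 genes, 23 in Fes-/- cells and 20 in wild type changed sign under library totals, 23 and 21 under log2(TPM + 1), and 23 and 21 under log2(TPM + 0.1). Under library totals these were at -0.86 to -0.098 in Fes-/- cells and -0.84 to -0.028 in wild type. They include Rrp12 and Bysl in Fes-/- cells, and Dkc1, Utp20, Bop1, Pes1 and Noc3l in both genotypes. Among the genes of the Pol I group, the 3 given in every library in each other role and the genes named from the further lists, those that changed sign under library totals had these log2 changes: in Fes-/- cells Polr1a -0.80, Rrn3 -0.098, Nolc1 -0.15, Fbl -0.38, Npm3 -0.57, Taf1b -0.22, Polr2k -0.30, Polr2l -0.61, Nhp2 -0.29, Snu13 -0.29, and in wild type Polr1a -0.83, Polr1e -0.74, Rrn3 -0.028, Fbl -0.41, Npm3 -0.64, Taf1b -0.22, Polr2k -0.31, Polr2l -0.43, Nhp2 -0.25, Snu13 -0.27. Under log2(TPM + 1) they were in Fes-/- cells Polr1a -0.75, Rrn3 -0.13, Nolc1 -0.16, Fbl -0.41, Npm3 -0.60, Taf1b -0.25, Polr2k -0.34, Polr2l -0.61, Nhp2 -0.33, Snu13 -0.32, and in wild type Polr1a -0.76, Polr1e -0.59, Rrn3 -0.055, Fbl -0.43, Npm3 -0.65, Taf1b -0.24, Polr2k -0.33, Polr2l -0.42, Nhp2 -0.27, Snu13 -0.30. Under log2(TPM + 0.1) they were in Fes-/- cells Polr1a -0.82, Rrn3 -0.13, Nolc1 -0.17, Fbl -0.42, Npm3 -0.61, Taf1b -0.27, Polr2k -0.34, Polr2l -0.65, Nhp2 -0.33, Snu13 -0.33, and in wild type Polr1a -0.86, Polr1e -0.74, Rrn3 -0.057, Fbl -0.44, Npm3 -0.66, Taf1b -0.25, Polr2k -0.34, Polr2l -0.45, Nhp2 -0.27, Snu13 -0.31. Values close to 0 changed sign elsewhere too. Polr1e in Fes-/- cells had 0.049 with DESeq2, 0.051 with RLE factors, 0.0040 with a filter of 1 CPM in 3 libraries, 0.027 with the 6 libraries alone, 0.033 without replicate 2 of the wild type and 0.041 without replicate 2 of Fes-/-. Polr1a in wild type had -0.011 with no filter on low counts. The difference of the LPS effects on Myc was 0.16 without replicate 2 of the wild type and 0.12 without replicate 2 of Fes-/-. These 2 settings were chosen after seeing the data, and the cause of the changes was not tested. When each library was left out in turn, the value ranged from -0.093 to 0.35 for Polr1a in wild type, from -0.026 to 0.053 for Polr1e in Fes-/- cells, and from -1.38 to 0.26 for the difference on Myc.

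Leaving out 1 library gave 13 to 22 genes called higher and 4 to 5 lower in Fes-/- cells, and 15 to 21 higher and 4 to 6 lower in wild type. DESeq2 called 19 higher and 4 lower in Fes-/- cells, and 20 and 6 in wild type. With the replicate number as a block, 24 were called higher and 6 lower in Fes-/- cells, and 23 and 6 in wild type. Of all 15801 tested genes, the block called 11877 in Fes-/- cells and 11862 in wild type. The block gave calls to 9 further genes in Fes-/- cells (Nop56, Dkc1, Npm3, Ncl, Nop14, Wdr75, Tsr1, Nop2 and Nop16) and to 3 in wild type (Dkc1, Npm3 and Nop16), and took none away. No label says that same-numbered libraries share a mouse. Deviations from the group means of same-numbered LPS and PBS libraries correlated at 0.0678 to 0.189 in Fes-/- cells and 0.137 to 0.166 in wild type, and each library correlated best with its own number, which is a hint from the data and not from the design. No genotype difference or difference of LPS effects was called among the 40 genes with the block. With no filter on low counts 1 gene, Myc, was called higher in Fes-/- cells under LPS and 1, again Myc, under PBS. Over all genes the genotype calls under LPS numbered 17 with edgeR, 37 with DESeq2 and 358 with no filter. Under PBS they numbered 13, 33 and 315, and for the difference of the LPS effects 3, 5 and 90, against 6 by limma-trend with a pseudocount of 1 TPM and 5 with 0.1 TPM. Each of the 40 genes had at least 105 reads in every library, and the effect of depth on the tests was not tested.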
